A study of Mus musculus with 4 samples.

Results

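The KCNQ and KCNH genes encode voltage-gated potassium channels that set how readily a neuron fires. The 7 genes described here were listed by gene symbol, with earlier results of these data known: Kcnq3 and Kcnq5 of the KCNQ family, and Kcnh1, Kcnh5, Kcnh2, Kcnh7 and Kcnh3 of the KCNH family. All 7 members had a row among the 31735 gene rows that the 4 libraries shared. The libraries hold ribosome-bound RNA, immunopurified from the rostral pons of adult, untreated control mice of the line Cbln2-TRAP NIDA172 (Cbln2-EGFP-Rpl10a), in which ribosomal protein L10a carries EGFP. All 4 libraries are immunopurified and form 1 group, with replicate numbers 1 to 4, and the results are levels, ratios of genes inside each library and replicate differences. The labels give no strain, and do not say whether a replicate is 1 animal or a pool, so a p-value reflects only how these libraries vary, and that variation may be technical. No unpurified RNA was analysed here, so a level does not show that the tagged cells were its source, and fewer cells that express a gene cannot be told apart from less RNA per cell.

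KCNQ subunits assemble as tetramers into the M-channel, which opens slowly near the resting potential and damps repeated firing. Receptors coupled to Gq close it, because they activate phospholipase C and deplete the membrane lipid PIP2 that holds the channel open. KCNH subunits fall into the EAG, ERG and ELK groups (ether-a-go-go, and its related and like genes). ERG channels inactivate faster than they open and pass most of their current as the membrane repolarizes, and EAG channels are closed by calcium bound to calmodulin.

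The selectivity filter is the loop that lets potassium through. Most voltage-gated potassium channels, KCNQ included, have a tyrosine between a pair of glycines there, and KCNH channels have a phenylalanine. The coding sequences of 4 KCNH members (GENCODE M21 transcripts, GRCm38, 39 bases each, read 5′ to 3′) are shown because this filter marks the KCNH family. Capitals mark the 3 filter codons.
Kcnh1: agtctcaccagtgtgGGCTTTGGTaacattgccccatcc
Kcnh5: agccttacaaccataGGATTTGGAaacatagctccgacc
Kcnh2: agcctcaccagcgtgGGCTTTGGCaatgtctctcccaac
Kcnh7: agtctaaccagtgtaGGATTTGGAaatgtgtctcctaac
The middle codon was TTT, a phenylalanine codon, in all 4.

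The libraries held 12731825 to 21140265 gene counts, of which the 7 members took 2394 to 5252, or 154 to 264 counts per 1000000 gene counts (CPM). Of the members, 6 reached 1 CPM in all 4 libraries, and Kcnh3 did not. The 6 were of similar CPM, with means between 30.5 and 43.7. The labelled tissue is the rostral pons. All 6 general neuronal genes checked reached 1 CPM in every library, led per kb of exon by Snap25, Syn1 and Nefl. Markers of other cells were present too. At least 1 CPM in all 4 libraries was reached by 5 of 6 astrocyte genes (led by Slc1a2, Aqp4 and Slc1a3), 4 of 5 oligodendrocyte genes (Mbp, Cnp and Mobp), 1 of 5 microglia genes (P2ry12, with Csf1r and Cx3cr1 the others of its 3 highest) and 3 of 4 endothelial genes (Slco1a4, Flt1 and Pecam1). It was also reached by all 6 cerebellar granule cell genes (led by Neurod1, Cbln3 and Gabra6) and all 5 Purkinje cell genes (Car8, Itpr1 and Calb1). Pcp2 was the lowest of the Purkinje cell genes per kb, at 1.09 to 11.6 CPM. The levels of these genes do not show which cells they came from.

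**Figure D1:**
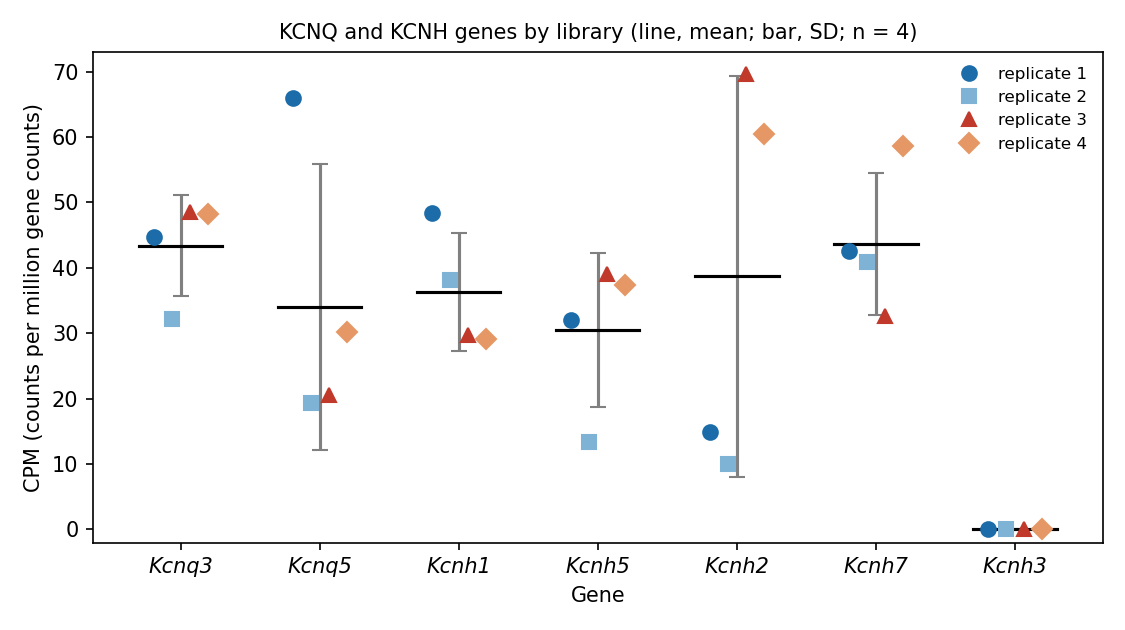
CPM of each gene (y axis) in replicates 1 to 4 (symbols), with the mean (line) and SD (bar). The highest value is 1.51, 1.66 and 1.79 times the lowest for Kcnq3, Kcnh1 and Kcnh7, Kcnh2 splits into a low and a high pair, and Kcnh3 lies at or next to 0.

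Kcnq3 encodes an M-channel subunit that assembles with other KCNQ subunits. It lies on chromosome 15, 65986387 to 66286642, minus strand (ENSMUSG00000056258.9). Kcnq3 was at 44.7, 32.1, 48.5 and 48.2 CPM in replicates 1 to 4, a mean of 43.4 ± 7.70 (SD, n = 4). Replicate 2 was lowest, and the other libraries lay within a few CPM of each other. Its log2 CPM had the smallest SD of the 6 detected members, 0.28, and 8.65% of the 10131 genes that have an exon length and reached 1 CPM in every library had a smaller one. That place depended on the library totals. With the 20 most abundant rows left out of them, Kcnq3 was at 3.59 ± 0.925 CPM per kb of exon (SD, n = 4). Kcnh7 was then at 3.43 ± 0.744 and Kcnh1 at 5.91 ± 1.14, both with a smaller spread relative to the mean than Kcnq3.

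Kcnq5 encodes an M-channel subunit that can assemble alone or with the product of Kcnq3. It lies on chromosome 1, 21398403 to 21961942, minus strand (ENSMUSG00000028033.16), and 237 of its exon bases overlap the antisense gene Gm26580. Kcnq5 was at 65.9, 19.3, 20.5 and 30.2 CPM in replicates 1 to 4, a mean of 34.0 ± 21.8 (SD, n = 4). Replicate 1 stood above the other 3, which makes its highest value 3.42 times its lowest. The ratio of Kcnq3 to Kcnq5 followed that library, with log2 ratios per kb of -1.36, -0.16, 0.26 and -0.23 in replicates 1 to 4. Their mean, -0.37 ± 0.69 (SD, n = 4), lay within the spread, so the data gave no order of the pair (two-sided exact sign-flip permutation p = 0.5, adjusted p = 0.618 over 21 member pairs).

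Kcnh1 and Kcnh5 encode the EAG channels Kv10.1 and Kv10.2. Kcnh1 (chromosome 1, 192190774 to 192510159, plus strand, ENSMUSG00000058248.12) was at 48.3, 38.2, 29.7 and 29.1 CPM in replicates 1 to 4, a mean of 36.3 ± 9.02 (SD, n = 4). Kcnh5 (chromosome 12, 74897220 to 75177332, minus strand, ENSMUSG00000034402.3) was at 32.0, 13.4, 39.0 and 37.3 CPM, a mean of 30.5 ± 11.7. Kcnh1 was lower in replicates 3 and 4 than in 1 and 2, without overlap, and Kcnh5 was low in replicate 2 alone. Per kb, Kcnh5 exceeded Kcnh1 in replicates 1, 3 and 4, and Kcnh1 was the higher in replicate 2. The mean log2 ratio of Kcnh1 to Kcnh5 was -0.48 ± 0.83, within the spread (exact sign-flip permutation p = 0.375, adjusted p = 0.492).

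Kcnh2 and Kcnh7 encode the ERG channels ERG1 and ERG3. ERG1 also carries a repolarizing current of the heart. Kcnh2 (chromosome 5, 24319589 to 24351604, minus strand, ENSMUSG00000038319.14) was at 14.9, 9.96, 69.6 and 60.4 CPM in replicates 1 to 4, a mean of 38.7 ± 30.6 (SD, n = 4). It was low in replicates 1 and 2 and high in 3 and 4, with its highest value 6.98 times its lowest. The counts behind these levels were 316, 155, 886 and 925. Of the 10131 genes detected throughout, 91.9% had a smaller SD of log2 CPM than the 1.41 of Kcnh2.

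Kcnh7 (chromosome 2, 62693414 to 63184287, minus strand, ENSMUSG00000059742.10) was at 42.6, 40.9, 32.7 and 58.6 CPM, a mean of 43.7 ± 10.8 (SD, n = 4). It was highest in replicate 4 and lowest in replicate 3, so Kcnh2 and Kcnh7 did not vary together. The log2 ratio of Kcnh2 to Kcnh7 per kb was 0.12, -0.32, 2.49 and 1.58 in replicates 1 to 4. These genes stood nearly level in the first 2 libraries, and Kcnh2 was well above Kcnh7 in the others. The exons of Kcnh7 share 696 of 15226 bases with the antisense gene Gca, which was at 27.1 to 106 CPM. Whether the counting used strand is not given in the sources used here, and without strand the reads of that stretch cannot be told apart.

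Kcnh3 encodes the ELK channel Kv12.2 (chromosome 15, 99224861 to 99242817, plus strand, ENSMUSG00000037579.7). It had 0 counts in replicates 1 to 3 and 1 count in replicate 4. With 3 counts as the limit that a count of 0 allows, its level was at most 0.142, 0.193 and 0.236 CPM in replicates 1 to 3. Over all libraries its single count stood against 2849 of Kcnh7, the member next above it per kb. That is a ratio of 1077 per kb in favour of Kcnh7 (95% exact interval 193 to 42555, counting error only). Every other member exceeded Kcnh3 in 4 of 4 libraries.

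CPM compare a gene between libraries, and a comparison between genes also needs their length. Per kb of union exon (all annotated exon bases of a gene), Kcnh2 was at 7.99 ± 6.32 CPM per kb (SD, n = 4), Kcnh5 at 7.51 ± 2.89, Kcnh1 at 4.96 ± 1.23, Kcnq5 at 4.42 ± 2.84, Kcnq3 at 2.95 ± 0.523 and Kcnh7 at 2.87 ± 0.711. No neighbours in this order differed beyond their spread, apart from Kcnh7 and Kcnh3. The mean log2 ratio was 0.21 ± 0.85 for Kcnh5 to Kcnh2, -0.28 ± 0.56 for Kcnq5 to Kcnh1 and 0.04 ± 0.35 for Kcnq3 to Kcnh7. Within the 10131 genes detected throughout, the 6 members lay mostly below the middle, between percentiles 22.5 and 58.6 in replicates 1 and 2. In replicates 3 and 4 Kcnh2 reached percentiles 75.4 and 68.5, and Kcnh5 65.1 and 59.7.

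Of the 21 pairs of members, 10 had the same direction in all 4 libraries, but 6 of these were pairs with Kcnh3. The other 4 of 15 were Kcnh1 above Kcnq3 (1.57-fold, log2 ratio of Kcnq3 to Kcnh1 -0.65 ± 0.46), Kcnh5 above Kcnq3 (2.19-fold, log2 ratio of Kcnq3 to Kcnh5 -1.13 ± 0.42), Kcnh1 above Kcnh7 (1.62-fold) and Kcnh5 above Kcnh7 (2.26-fold). Only Kcnh5 against Kcnq3 had a mean beyond 2 SD. With 4 libraries the exact sign-flip test cannot go below p = 0.125, and all 10 pairs had that p (adjusted p = 0.262 over 21 pairs).

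The 4 orders above rested on the length used. Kcnq3 and Kcnh7 have 14708 and 15226 bases of union exon, against 4058 in Kcnh5, while the longest coding sequences are 2619, 3585 and 2964 bases. Per kb of coding sequence, Kcnq3 came first at 16.6 CPM per kb and Kcnh5 sixth at 10.3, and Kcnq3 stood above Kcnh5 (log2 0.75 ± 0.40). The order of Kcnq3 and Kcnh1 turned too (log2 0.43 ± 0.50), as did that of Kcnh5 and Kcnh7 (-0.31 ± 0.72). Kcnh1 and Kcnh7 were level per kb of coding sequence (log2 0.01 ± 0.50), and Kcnh1 was below Kcnh7 without division by length (-0.26 ± 0.51). Which member was highest thus depended on the length, whereas Kcnh3 was last under every length.

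**Figure D2:**
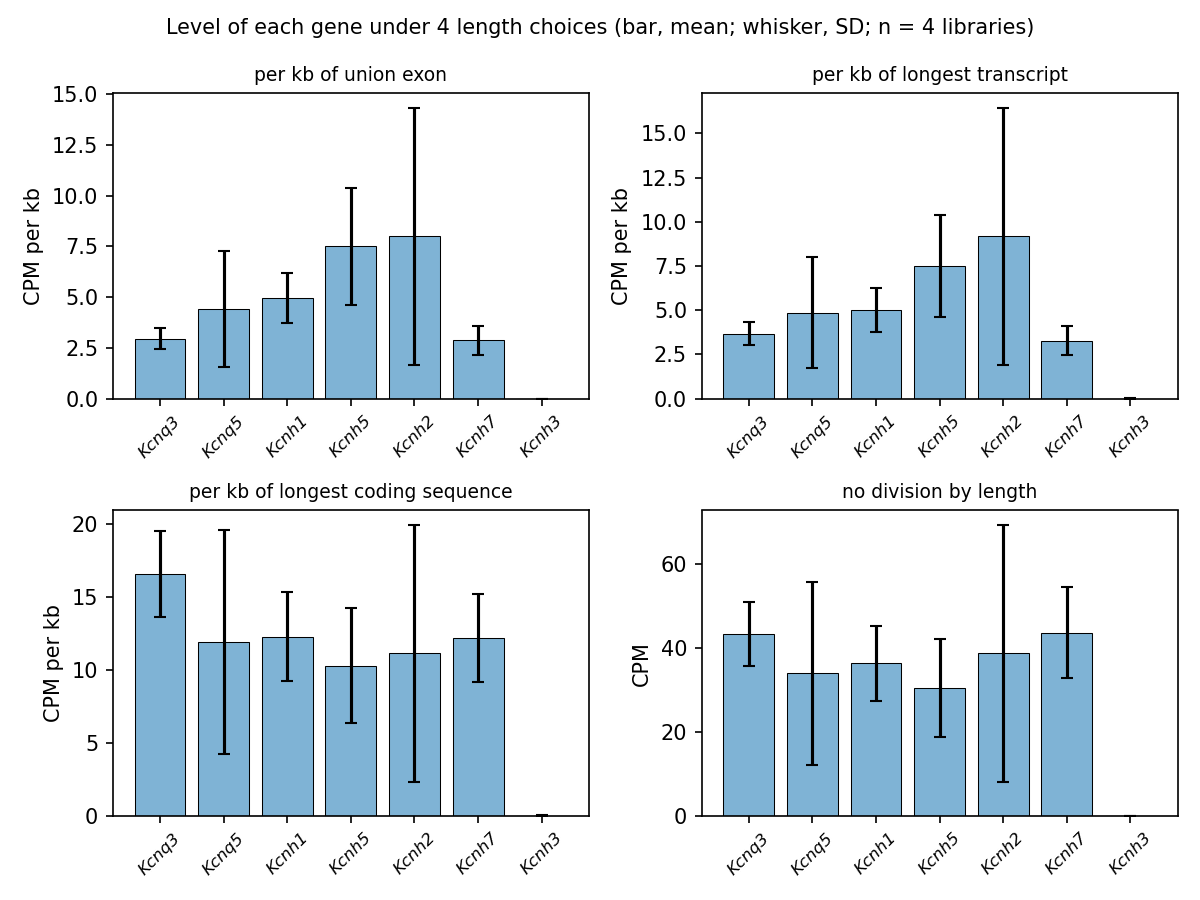
Mean level of each gene over 4 libraries (bar) with SD (whisker), in CPM per kb of union exon, longest transcript or longest coding sequence, and in CPM without division by length. Kcnh2 and Kcnh5 are highest per kb of exon, Kcnq3 is highest per kb of coding sequence, and Kcnh3 is last in each panel.

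As shares of the summed level of the 7 members per kb of exon, Kcnh5 held 24.7%, 18.4%, 26.6% and 25.1% in replicates 1 to 4 and ranked 2 in every library. Kcnh2 held 9.65% and 11.5% in replicates 1 and 2 and 39.7% and 34.0% in replicates 3 and 4. The ERG genes together held 18.4% and 26.4% in replicates 1 and 2 and 45.7% and 44.4% in replicates 3 and 4. The EAG genes held 45.3%, 47.4%, 37.8% and 35.9% in replicates 1 to 4. The 2 KCNQ members held 36.3%, 26.1%, 16.5% and 19.6%. These are shares of the 7 members and not of the whole families.

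**Figure D3:**
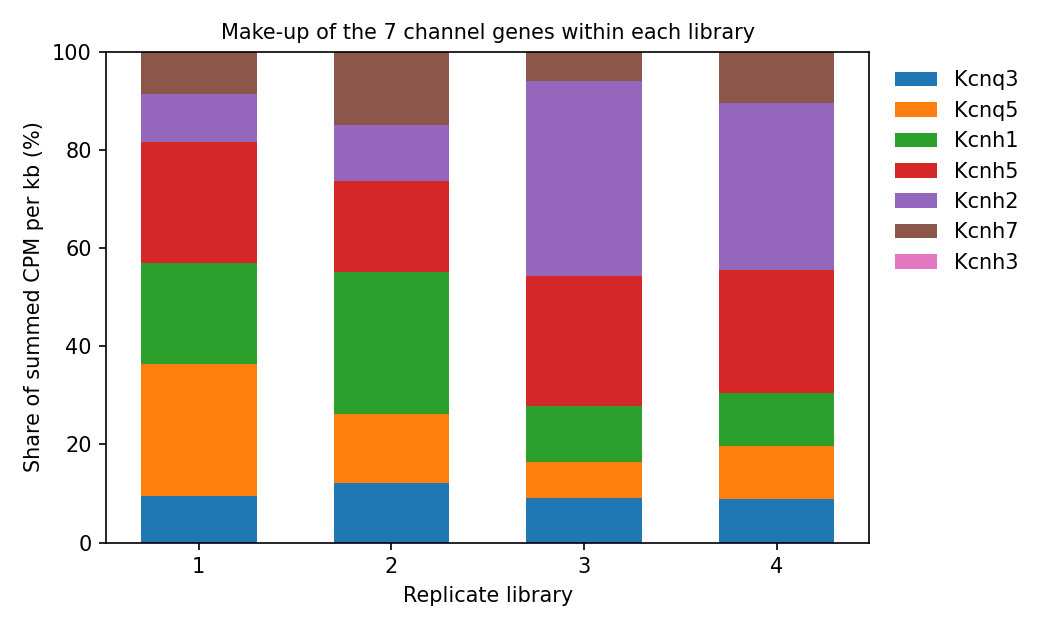
Share of each gene (colours, y axis in %) in the summed CPM per kb of the 7 genes, by replicate library (x axis). The band of Kcnh2 is 9.65% and 11.5% in replicates 1 and 2 and 39.7% and 34.0% in replicates 3 and 4.

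The descriptions number the libraries 1666 and 1667 (replicates 1 and 2) and 2469 and 2470 (replicates 3 and 4), and these adjacent numbers were taken as a first and a second pair. The labels call neither a batch, and no treatment is involved. Of 13905 genes tested between the pairs, 176 (1.27%) passed, with 99 (0.712%) higher in replicates 3 and 4 and 77 (0.554%) lower there (adjusted p under 0.05 in the quasi-likelihood test of edgeR). Of the 6 members tested, 0 passed in edgeR, 1 had an unadjusted p under 0.05, beside 16.8% of all genes, and 1 passed in DESeq2, beside 9.44% of all genes there. That member was Kcnh2 in each case.

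Kcnh2 averaged 12.5 CPM in the first pair and 65.0 CPM in the second. Its log2 change was 2.41 with SE 0.58, a 5.32-fold difference, and its edgeR adjusted p was 0.0632, just short of the threshold. The call turned on the processing. Kcnh2 passed with DESeq2 (adjusted p = 0.000606), in edgeR without a filter on low counts (0.00726), in edgeR on genes of at least 1 CPM in every library (0.0244) and without replicate 1 (0.0139). Those edgeR fits called 4.77%, 4.94% and 4.60% of all their genes. It did not pass without replicate 2, 3 or 4 (edgeR adjusted p = 0.0548, 0.221 and 0.0566), and its log2 change lay between 2.18 and 2.70 in all of these. A fit without 1 replicate takes its spread from the pair left whole and assumes that the lone library varies like it. A larger change in either direction was seen in 10.1% of tested genes.

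The ribosomal RNA row Rn45s took 1.68% and 1.61% of gene counts in the first pair and 24.2% and 9.29% in the second. With the 20 most abundant rows removed, Rn45s among them, the log2 change of Kcnh2 was 2.43 (edgeR adjusted p = 0.0608). The pairs also had different row sets, with 32531 gene rows in each library of the first pair and 32657 in the second. This difference in processing cannot be told apart from the pair. None of the rows listed for only 1 of the pairs overlapped a member, as far as their symbols could be placed (32 of 796 and 375 of 922 rows). Whether a shared row such as Kcnh2 was counted over the same exons in both pairs cannot be seen in this way. Summed markers moved between the pairs as well. The 6 granule cell genes summed to 526 and 1190 CPM in replicates 1 and 2 and to 129 and 226 in replicates 3 and 4, the 5 Purkinje cell genes to 1448 and 2479 against 721 and 680, and the 6 neuronal genes to 24531 and 21959 against 10664 and 11326. These sums rest on a few abundant genes. Snap25 alone was at 18577, 15908, 8131 and 6936 CPM, and Itpr1 at 949, 1706, 357 and 430. Of these lists, Neurod1, Cbln3, Car8, Itpr1 and Nefm passed the test, all lower in the second pair. They are 2 of 6 granule cell, 2 of 5 Purkinje cell and 1 of 6 neuronal genes tested, beside 0.554% of all tested genes called lower. Itpr1 was not called without replicate 2 (edgeR adjusted p = 0.0908). Members that did not pass include some with higher levels in the second pair, named after their values were seen. Pcp2 was at 1.09 and 3.60 CPM in the first pair and 5.66 and 11.6 in the second (log2 change 1.85), and Calb1 at 166 and 158, then 283 and 184 (0.57). The log2 change was 0.28 for Map2 and -0.05 for Rbfox3, whose values overlapped between the pairs. None of these markers was at 0 in any library.

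The sums of glial markers overlapped between the pairs. They were 864, 1040, 253 and 1575 CPM for astrocytes, 834, 804, 340 and 1714 for oligodendrocytes and 20.3, 2.70, 6.83 and 34.1 for microglia in replicates 1 to 4. The astrocyte and oligodendrocyte sums were lowest in replicate 3. These sums too rest on a few genes, with Slc1a2 alone at 591, 654, 184 and 1304 CPM. Among tested glial genes, 0 were called, beside 1.27% of all tested genes. Aqp4 and Mog were lower in the second pair without overlap (log2 change -1.94 and -1.43) and Aldh1l1 higher (1.29). Of all tested genes, 23.8% were lower and 23.7% higher in this way. The 4 endothelial genes summed to 123 and 181 CPM in replicates 1 and 2 and to 68.0 and 35.9 in replicates 3 and 4, lower without overlap. Of them, Slco1a4 and Flt1 were lower without overlap (log2 change -2.16 and -0.92). The values of Pecam1 and Cldn5 overlapped between the pairs, and Cldn5 was highest in replicate 3, at 3.06 CPM. Defining markers were at 0 counts in some libraries: C1qa in replicates 2 and 3, Tmem119 in 3 and 4, and Cldn5 in 4. The part of the neuronal, granule, Purkinje, glial and endothelial markers in the Kcnh2 difference was not tested.

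The other members differed less between the pairs. The log2 change was 0.78 (95% interval -0.61 to 2.17) for Kcnh5, 0.36 (-0.77 to 1.48) for Kcnq3, 0.12 (-1.02 to 1.25) for Kcnh7, -0.53 (-1.74 to 0.67) for Kcnh1 and -0.74 (-2.18 to 0.70) for Kcnq5. The intervals all include 0 and are wide enough to hold a log2 change of 1 in at least 1 direction. Single libraries moved these values, with no call in any such fit (edgeR). Kcnq5 was at 0.36 without replicate 1 and -1.35 without replicate 2, and Kcnh5 at 1.5 and 0.31. Kcnq3 was at 0.58, 0.17 and 0.23 without replicates 1, 2 and 3, and Kcnh7 at 0.39 without replicate 3 and -0.23 without replicate 4. The median over the 6 members was 0.24, beside -0.03 over all tested genes. Both libraries of the second pair lay above both of the first for Kcnq3, Kcnh5 and Kcnh2, 3 of 6 members beside 23.7% of tested genes, and below for Kcnh1, 1 of 6 beside 23.8%.

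**Figure D4:**
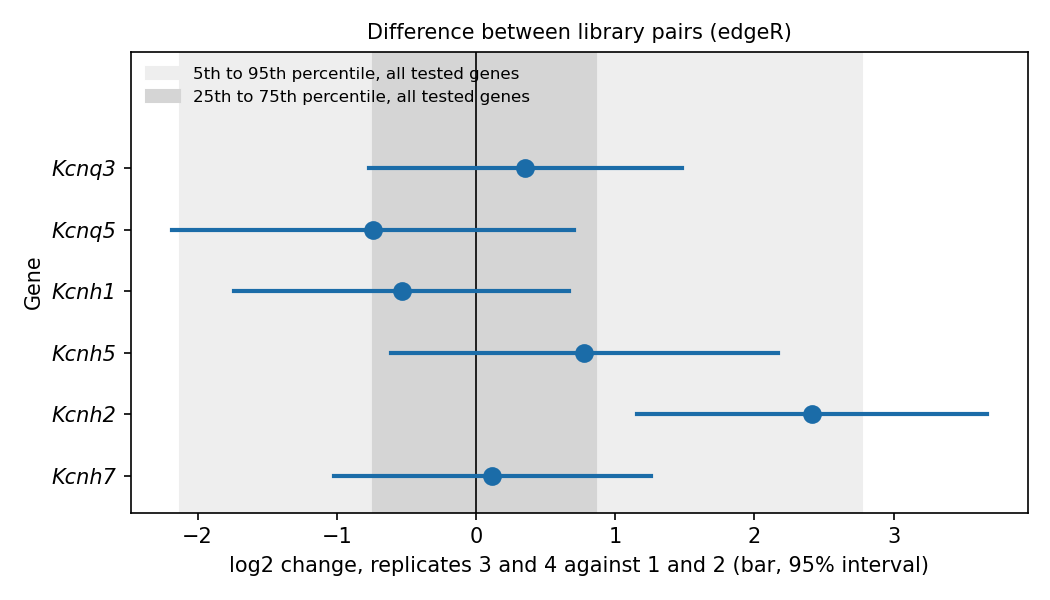
log2 change of each tested gene between replicates 3 and 4 and replicates 1 and 2 (point, x axis) with its 95% interval (bar), over bands for the 25th to 75th and the 5th to 95th percentile of all tested genes. The interval of Kcnh2 lies above 0, and those of the other 5 genes include 0.

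Within a library, the total enters a ratio of members only through the pseudocount of 0.5 CPM per kb. The log2 ratio of Kcnq5 to Kcnh2 was 1.34 and 0.23 in the first pair and -2.23 and -1.55 in the second. For Kcnh1 to Kcnh2 it was 0.98 and 1.16, then -1.71 and -1.54. For Kcnh5 to Kcnh2 it was 1.23 and 0.58, then -0.55 and -0.42. All 3 changed sign between the pairs, with both libraries of a pair on the same side. All 5 ratios of Kcnh2 to the other detected members kept the pairs apart without overlap, with shifts between the pair means of 1.39 to 2.69 in size. So did 5 of the 10 ratios without Kcnh2, with shifts over the 10 of 0.02 to 1.31 in size. The 5 ratios with Kcnh2 share that gene and are not separate observations. How often ratios of other genes keep the pairs apart was not measured. The ratio of Kcnh1 to Kcnh5 went from a mean of 0.17 in the first pair to -1.14 in the second, and that of Kcnq5 to Kcnh5 from -0.11 to -1.40, both without overlap. These shifts are nearly as large as that of Kcnh5 to Kcnh2, which went from 0.90 to -0.49.

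Likeness to a member was measured as the SD of the log2 ratio over the 4 libraries, among 8830 other genes of at least 10 CPM on average. The measure was taken for the gene of each family with the highest mean per kb of union exon, which the spread leaves undecided and other lengths change. For Kcnh2, the closest were Got2 (SD 0.07), Ptms (0.07) and Sh2b1 (0.08), beside a median of 1.58 over all candidates. Got2 encodes the mitochondrial aspartate aminotransferase. For Kcnq5 they were Ndufaf5 (0.06), B3glct (0.06) and Bend4 (0.09), beside a median of 0.99. With 4 libraries and so many candidates, such closeness is a description of these libraries only. Among the 15 pairs of the 6 detected members, measured in this way without a pseudocount, the SD was smallest for Kcnq3 and Kcnh7 (0.42) and largest for Kcnq5 and Kcnh2 (1.79).

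Of 4 further genes of the families reported here, 0 reached 1 CPM in all 4 libraries. Kcnh6, the third ERG gene, was at 0.662 to 9.98 CPM and the ELK gene Kcnh8 at 0.236 to 5.35 CPM. Kcnq1 and Kcnh4 each had 0 counts in 2 of the libraries.

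Of 11 partner genes of the channels, 6 reached 1 CPM in all 4 libraries. Of the 8 tested between the pairs, 0 were higher and 0 lower (edgeR), beside 0.712% and 0.554% of all tested genes. Stx1a and Bace1 were higher in the second pair without overlap (log2 change 2.05 and 0.81), and Nedd4l lower (-0.56). Of all tested genes, 23.7% were higher and 23.8% lower in this way. The calmodulin genes Calm2 and Calm3, whose product binds KCNQ and EAG subunits, were the highest per kb, at 2039 ± 736 and 470 ± 62.5 CPM (SD, n = 4). Nedd4l, which encodes a ubiquitin ligase of KCNQ channels, followed at 372 ± 124 CPM. The small KCNE subunits were scarce. Kcne1 and Kcne2 had 0 counts in all 4 libraries, and Kcne3, Kcne4 and Kcne1l did not exceed 2.84 CPM in any.

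The receptors and enzymes that close M-channels were mostly present, and 13 of 17 genes reached 1 CPM in every library. They were led per kb by Plcb4 at 621 ± 442 CPM, Prkcb at 466 ± 229 and Gnaq at 348 ± 22.0 (SD, n = 4). These encode a phospholipase C, a protein kinase C and a Gq protein subunit. Of 15 tested, Plcb4 was lower in the second pair (log2 change -1.69, SE 0.35, edgeR adjusted p = 0.0386) and 0 were higher, and Plcb4 was not called without replicate 2 (edgeR adjusted p = 0.127). Over all tested genes, 0.554% were called lower and 0.712% higher. Among muscarinic receptors, Chrm1 was at 1.56 to 19.0 CPM, Chrm3 at 0.579 to 17.4 and Chrm5 below 1 in every library.

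All 10 genes of PIP2 supply and breakdown reached 1 CPM in all 4 libraries. Between the pairs 0 were called higher and 0 lower (edgeR), beside 0.712% and 0.554% of all tested genes. They were led per kb by Synj1, which breaks PIP2 down, at 1193 ± 188 CPM, Pitpna, which carries its precursor, at 479 ± 121, and Cds2 at 439 ± 77.3 (SD, n = 4). The axon initial segment, where ankyrin-G holds M-channels beside sodium channels, was represented by 7 of 7 genes. Again 0 were called, beside 1.27% of all tested genes. Sptbn4 and Trim46 were higher in the second pair without overlap (log2 change 2.35 and 1.46), and Scn8a and Nrcam lower (-1.25 and -0.43). Of all tested genes, 23.7% were higher and 23.8% lower in this way. Scn8a was at 814 ± 420 CPM, the ankyrin-G gene Ank3 at 1253 ± 423 and Scn1a at 333 ± 110.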

How the data were processed

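The authors deposited 1 table of raw counts per library, by gene symbol and not normalized. Per the submitters' processing notes, STAR 2.0.0e and HTSeq were used on mm10. The annotation, strand and counting settings are not given in the sources used here. HTSeq summary rows were left out (no feature 24.0% to 30.1% of a library's total, not unique 28.6% to 37.2%, ambiguous 1.25% to 2.07%), as was an empty row named unknown. CPM used all gene rows. Unshared rows held 0.549% to 0.732% of counts. Lengths and positions came from GENCODE M21 (GRCm38, the mm10 assembly). Ratios had a pseudocount of 0.5 CPM per kb and were tested by exact permutation of their signs (sign flips, two-sided, 16 patterns).

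Pairs were compared with edgeR 4.0.16 (filterByExpr, TMM scaling, quasi-likelihood test, adjustment by Benjamini-Hochberg over all tested genes), tested on simulated data first. SE values were derived from the F statistic. Alternatives were DESeq2 1.42.0, its size factors in edgeR, other lengths, other filters, libraries without the 20 most abundant rows, a pseudocount of 0.1 and leaving out each replicate. The coding length was added after seeing the data, in place of RefSeq protein lengths, which were not used here.

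Libraries were checked for duplicate deposits: any 2 of them differed by a chi-square of 153 to 652 per degree of freedom over 10632 genes, far above sampling noise. This check does not show that they came from separate animals. The description of replicate 4 repeats the label of replicate 3, and the title was followed. Members and lists were chosen with earlier results of these data known. Some further genes of the families and lists are not reported here, so shares, orders and counts cover only the genes reported. From each list, the 3 highest genes per kb and any gene passing the pair test were named. Further list genes were named after their values were seen. Exact intervals and limits for a count of 0 include counting error alone: the reads carry no molecular identifiers and need not be separate molecules.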

Additional observations from a re-analysis of the deposited data

Results flagged for a closer look

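Kcnh3 was at 0.0653 CPM in replicate 4, the highest of its 4 values, and at 0 in the others, so that its gap filled the whole range of the group (Dixon's test). The value is a single count, below the limit that a count of 0 allows. Each of 28 member levels and ratios was tested in this way, and chance flags about 1 in 20 groups.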

How the results depend on the processing

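The count of all genes called between the pairs was 176 and moved to 1377 with DESeq2, 875 with no filter, 525 at a minimum of 1 CPM in all libraries, and 389 to 699 when a replicate was left out (699, 662, 420 and 389 without replicates 1 to 4). The causes were not tested. The count of members called moved from 0 to 1 (Kcnh2) with DESeq2, with no filter and at that minimum, and was 0 to 1 when a replicate was left out, with 1 without replicate 1. Size factors of DESeq2 in edgeR and removal of the 20 most abundant rows left it at 0. The number of member pairs of 1 direction, 10 in 4 of 4 libraries, was 7 to 10 under other lengths, the other pseudocount and row removal. It was 10 to 14 when a replicate was left out. Those settings ask for 1 direction in the remaining libraries only, so their number cannot fall below 10. Without division by length, 4 log2 ratios reversed, to 0.26 for Kcnq3 to Kcnh1, 0.59 for Kcnq3 to Kcnh5, -0.26 for Kcnh1 to Kcnh7 and -0.59 for Kcnh5 to Kcnh7. With the longest coding sequence, which was chosen after seeing the data, 3 reversed, to 0.43, 0.75 and -0.31 for Kcnq3 to Kcnh1, Kcnq3 to Kcnh5 and Kcnh5 to Kcnh7. The length changes in these settings, and the weight of the pseudocount in each ratio changes with it. The SD of the log2 ratio of Kcnq3 to Kcnq5 was 0.69 per kb of union exon. It was 0.76 without division by length and 0.74 with the longest coding sequence. RefSeq protein lengths were not run. No paired analysis was possible because the libraries form 1 group. Kcnh3, at 1 count in all, is limited by depth.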
